A study of Mus musculus with 12 samples.

Results

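The EGF receptor family and its ligands were examined in mouse ear skin as 9 genes chosen by name, out of 55416 gene features in the deposited tables. They are the ligands Areg (amphiregulin), Epgn (epigen), Hbegf (heparin-binding EGF-like growth factor), Tgfa (transforming growth factor alpha), Ereg (epiregulin) and Btc (betacellulin), and the receptors Egfr, Erbb2 and Erbb3. All 9 passed the filter on low counts and were among the 17130 genes tested. Bulk mRNA of ear skin from C57BL/6 mice, 8 to 12 weeks old, was sequenced on day 6 in 12 libraries, 3 for each of 4 groups. IMQ_GW3965 received imiquimod and, from day 3, the liver X receptor agonist GW3965 at 20 mg/kg. IMQ_Troglitazone received imiquimod and, from day 3, troglitazone, an agonist of PPARγ, at 150 mg/kg. IMQ_Veh received imiquimod with the DMSO vehicle. UTX_Veh received the vehicle and has no imiquimod in its label, which does not spell out UTX. Imiquimod, a Toll-like receptor agonist that provokes psoriasis-like inflammation in mouse skin, was applied daily as 20.8 mg of a 5% cream to the dorsal side of the ears, and both drugs were injected daily into the peritoneum. Whether replicate libraries are from different mice is not stated, and the p-values therefore describe the variation among the libraries, which may be technical.

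The ligands are made as precursors anchored in the membrane and are cut loose by proteases at the cell surface. They bind Egfr, which pairs with itself or with Erbb2, a receptor without a known ligand of its own, and starts the Ras to ERK and PI3K to Akt signal chains. Erbb3 binds neuregulins, has a weak kinase and passes the signal on through its partners. In the epidermis these ligands are known for driving keratinocyte growth, migration and wound closure.

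Total expected counts per library lay between 18242074 and 25641602. All 13 keratinocyte markers had counts in every library, and their summed level was 59583 to 77432 CPM (counts scaled to library size) in IMQ_GW3965, 58306 to 68087 CPM in IMQ_Troglitazone, 55313 to 76813 CPM in IMQ_Veh and 24573 to 28529 CPM in UTX_Veh. The feature ENSMUSG00000119584 took 11.62% of the counts of IMQ_GW3965 replicate 3 and at most 0.138% of any other library's. IMQ_Veh replicate 3 had 0.702% of its counts in 14 skeletal muscle markers, against 0.173% and 0.200% in the other IMQ_Veh libraries. In bulk tissue, fewer cells of a type and less RNA per cell cannot be told apart.

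Epgn, Ereg, Areg and Btc lie next to each other on chromosome 5 (GRCm38, GENCODE M21 coordinates). Epgn is at chr5:91027464-91035215, Ereg at chr5:91074622-91093646 and Areg at chr5:91139599-91148432, all on the plus strand, and Btc is at chr5:91357261-91402994 on the minus strand. The other members lie apart, on other chromosomes, with Tgfa at chr6:86195223-86275719 (plus strand), Egfr at chr11:16752203-16918158 (plus), Erbb2 at chr11:98412470-98437716 (plus) and Erbb3 at chr10:128567523-128589652 (minus). Proximal promoters of 6 members (Egfr, Erbb2, Areg, Tgfa, Btc and Epgn) were taken from RefSeq (GRCm38.p6), as the 250 bases before and 50 bases after the annotated start. The promoter of Hbegf is not reported here, and Ereg and Erbb3 had no entry. Those of Areg, Epgn and Btc are shown because these neighbours on chromosome 5 moved by different amounts and in opposite directions. Capitals mark the only match found in the 6 promoters, a cAMP response element (CRE) in Areg that begins at position -61 from the annotated start. The windows are chr5:91139349-91139648 for Areg (plus strand), chr5:91027267-91027566 for Epgn (plus strand) and chr5:91402945-91403244 for Btc (minus strand).
Areg: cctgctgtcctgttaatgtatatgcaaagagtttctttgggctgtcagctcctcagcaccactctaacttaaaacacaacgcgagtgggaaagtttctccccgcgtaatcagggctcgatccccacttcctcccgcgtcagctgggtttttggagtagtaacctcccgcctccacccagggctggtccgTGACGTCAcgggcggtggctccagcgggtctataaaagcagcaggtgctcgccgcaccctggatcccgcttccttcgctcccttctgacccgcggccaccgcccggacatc
Epgn: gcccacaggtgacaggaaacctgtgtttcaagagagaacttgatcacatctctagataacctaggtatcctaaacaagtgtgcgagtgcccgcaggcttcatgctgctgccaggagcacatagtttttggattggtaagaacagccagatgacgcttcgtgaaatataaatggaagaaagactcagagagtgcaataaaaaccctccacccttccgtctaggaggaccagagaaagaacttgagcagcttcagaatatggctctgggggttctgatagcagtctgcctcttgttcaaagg
Btc: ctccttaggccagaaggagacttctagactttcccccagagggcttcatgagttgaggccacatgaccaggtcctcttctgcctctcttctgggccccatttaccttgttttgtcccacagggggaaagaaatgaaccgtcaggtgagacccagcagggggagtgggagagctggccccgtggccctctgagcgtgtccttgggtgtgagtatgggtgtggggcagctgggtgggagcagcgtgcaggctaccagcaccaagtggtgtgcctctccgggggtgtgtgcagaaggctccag
The searches covered both strands and took TGANTCA for AP-1, TGACGTCA for CRE, AGGTCA for the core motif of nuclear receptors, direct repeats of that core spaced by 1 or by 4 bases, and the serum response element by its name CArG. Every direct repeat also holds the core. Among 32851 RefSeq promoters of the same length, CRE was present in 1.79%, AP-1 in 7.81%, the nuclear receptor core in 16.3%, its repeats in 0.0396% and 0.0152%, and CArG in 1.63%. A match describes these letters only.

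The first comparison, IMQ_Veh against UTX_Veh, asked what imiquimod did to the family. Areg, Epgn, Hbegf, Tgfa and Ereg rose, Btc fell, and the receptors differed by at most 0.29 on the log2 scale. By edgeR's quasi-likelihood test, at an adjusted p under 0.05 over all genes, 6 of the 9 members were higher and 1 was lower. Over all genes tested, 33.0% were higher and 28.9% lower, so a change as such was common in this tissue. Of the genes called, 53.3% were higher, and 45.02% were under upper-quartile scaling. The median log2 fold change was 1.07 over the 9 members and 0.01 over all genes tested. Every IMQ_Veh library was above every UTX_Veh library for 7 of the 9 members and below for 1. Such separation, above and below, held for 34.7% and 32.1% of all genes tested. Values per library below are CPM scaled by TMM unless another unit is named.

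Epgn, a low-affinity ligand of Egfr, had 68.2, 82.0 and 60.7 CPM in the IMQ_Veh libraries, against 0.668, 0.585 and 1.03 CPM in the UTX_Veh libraries. The groups lay far apart, and Epgn had the largest fold change of the 9 members in this comparison, 92.2-fold, at a log2 fold change of 6.53 ± 0.51 (SE; edgeR adjusted p = 2.32e-06). In UTX_Veh it rested on 14 to 24 reads per library, so the size of the fold is less certain than its direction. Areg, a ligand made by keratinocytes and by several immune cells, had 14.9, 9.81 and 18.2 CPM in IMQ_Veh, against 0.472, 0.460 and 0.385 CPM in UTX_Veh. Every IMQ_Veh library was above every UTX_Veh library, with a log2 fold change of 5.00 ± 0.47 (edgeR adjusted p = 6.49e-06), again over few reads (9 to 12) in each UTX_Veh library.

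Hbegf, which binds heparan sulfate as well as Egfr and Erbb4, lies at chr18:36504927-36515805 on the minus strand. It had 98.7, 99.2 and 98.5 CPM in IMQ_Veh, against 11.6, 10.9 and 10.1 CPM in UTX_Veh. Both groups were tight and far apart, and the log2 fold change was 3.19 ± 0.23 (edgeR adjusted p = 1.35e-06). Tgfa, the classical autocrine ligand of keratinocytes, had 107, 126 and 95.1 CPM in IMQ_Veh, against 36.2, 37.3 and 35.9 CPM in UTX_Veh. The groups did not overlap, and the log2 fold change was 1.58 ± 0.18 (edgeR adjusted p = 2.64e-05). Ereg, which binds Egfr and Erbb4, had 85.2, 56.0 and 98.3 CPM in IMQ_Veh, against 37.6, 35.3 and 40.9 CPM in UTX_Veh. Its gain was the smallest among the ligands that rose, at 1.07 ± 0.22 on the log2 scale (edgeR adjusted p = 0.00138), and IMQ_Veh replicate 2 lay closest to the UTX_Veh libraries.

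Btc, a ligand of Egfr and Erbb4, had 3.37, 2.05 and 3.73 CPM in IMQ_Veh, against 10.2, 15.3 and 16.1 CPM in UTX_Veh. The groups did not overlap, and the log2 fold change was -2.19 ± 0.37 (edgeR adjusted p = 0.000329). Btc and Areg are neighbours among the ligand genes of chromosome 5, and their changes were opposite in sign.

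Among the receptors, Egfr had 104, 124 and 105 CPM in IMQ_Veh, against 93.6, 104 and 98.7 CPM in UTX_Veh, a log2 difference of 0.17 (95% confidence interval -0.08 to 0.42; edgeR adjusted p = 0.21). Erbb2 had 161, 161 and 140 CPM in IMQ_Veh, against 149, 146 and 137 CPM in UTX_Veh, a log2 difference of 0.09 (interval -0.08 to 0.27; edgeR adjusted p = 0.332). The lowest IMQ_Veh library was just above the highest UTX_Veh library for Egfr, and the groups overlapped for Erbb2. Erbb3 had 185, 148 and 150 CPM in IMQ_Veh, against 131, 132 and 132 CPM in UTX_Veh, and rose by 0.29 ± 0.10 on the log2 scale (edgeR adjusted p = 0.026). IMQ_Veh replicate 1 was the highest, and without it the Erbb3 difference was 0.14 (edgeR adjusted p = 0.235). The call on Erbb3 was also lost without IMQ_GW3965 replicate 2 (0.0578) or 3 (0.0545), which enter through the shared estimate of the spread, and without UTX_Veh replicate 1 (0.0653), 2 (0.0624) or 3 (0.0636). Values in parentheses after a left-out library are edgeR adjusted p, here and below. Upper-quartile scaling, which moved the median of all genes to -0.11, gave 0.17 for Erbb3 (adjusted p = 0.163) and turned Erbb2 to -0.03.

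**Figure D1:**
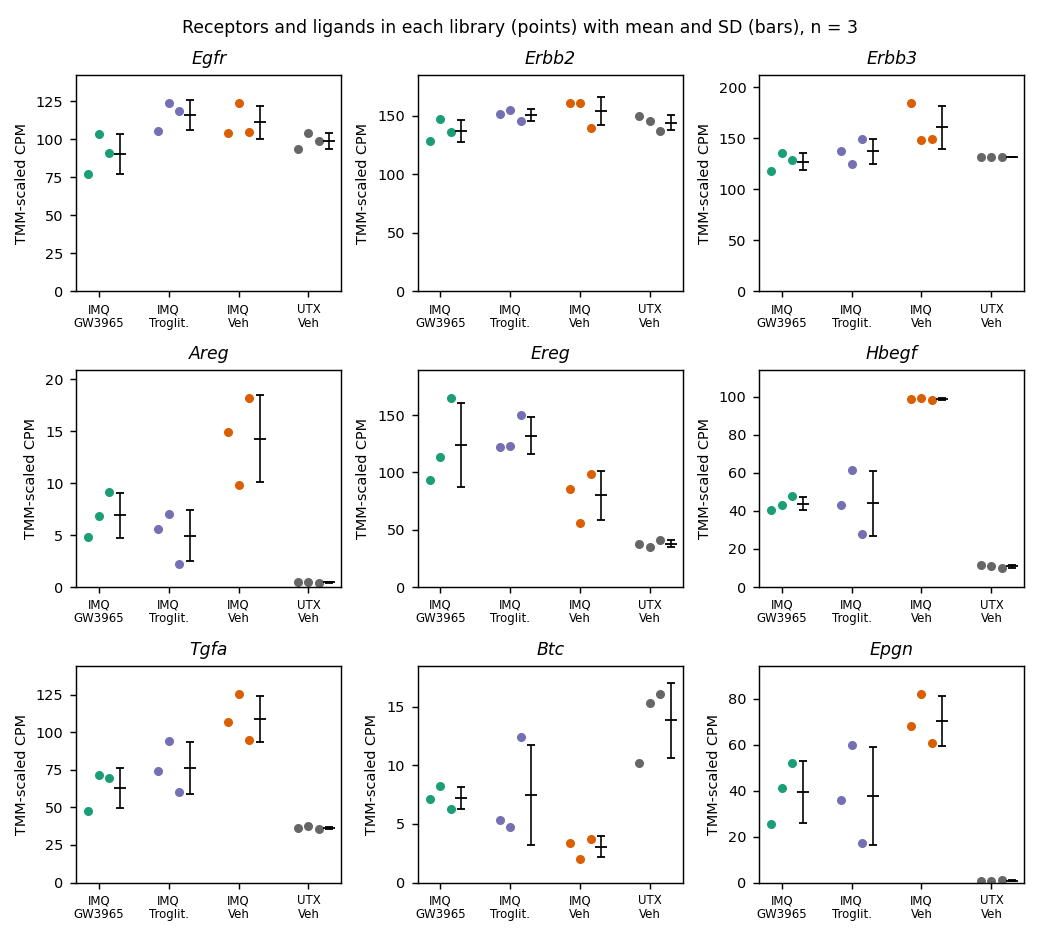
TMM-scaled CPM of the 3 receptors and 6 ligands in each of the 12 libraries (points), with group mean and SD (bars, n = 3) and axes that start at 0. Epgn, Areg and Hbegf are near 0 or low in UTX_Veh and highest in IMQ_Veh, Btc is highest in UTX_Veh, and Egfr, Erbb2 and Erbb3 vary least.

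The file names carry a lane field, L001 or L009, that the labels do not explain and that occurs in every group. For the 7 members called, the direction was the same within each field. The log2 differences within L001 (1 IMQ_Veh and 2 UTX_Veh libraries) and L009 (2 and 1) were 6.84 and 5.85 for Epgn, 4.15 and 5.12 for Areg, 3.13 and 3.28 for Hbegf, 1.77 and 1.49 for Tgfa, 0.62 and 1.16 for Ereg, 0.17 and 0.33 for Erbb3, and -2.55 and -2.16 for Btc. Markers of other cells moved as well. The summed level of 9 neutrophil markers was 5768 to 10105 CPM in IMQ_Veh and 19.9 to 36.8 CPM in UTX_Veh, with at most 1 marker at 0 in any library. That of 8 Schwann cell markers was 242 to 365 CPM in IMQ_Veh and 678 to 781 CPM in UTX_Veh, with none at 0. The keratinocyte sums were higher in every IMQ_Veh library, but the 13 markers were mixed. By edgeR 8 were higher and 2 lower, against 33.0% and 28.9% of all genes, with log2 fold changes from -2.62 to 4.32. All 14 skeletal muscle markers were lower by edgeR, with sums of 1885 to 7289 CPM in IMQ_Veh and 14293 to 16384 CPM in UTX_Veh. Of 9 cartilage markers tested 8 were lower, with sums of the 10 listed of 210 to 703 CPM in IMQ_Veh and 1323 to 1936 CPM in UTX_Veh. Of 11 macrophage markers 10 were higher, with sums of 656 to 1597 CPM in IMQ_Veh and 410 to 574 CPM in UTX_Veh. Their part in the changes of the members was not tested.

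Levels of different genes can be compared only per transcript length, as TPM, which corrects for it. In IMQ_Veh, Hbegf and Epgn led with a mean level of 56.1 TPM each and overlapping libraries, followed by Erbb2 at 39.4 TPM, Erbb3 at 33.2, Tgfa at 30.8, Ereg at 24.5, Areg at 17.0, Egfr at 16.1 and Btc at 1.44 TPM. In that order Epgn and Erbb2, Erbb2 and Erbb3, and Egfr and Btc did not overlap, while the other neighbours did. In UTX_Veh the receptors led, with 56.9 TPM for Erbb2, 39.9 for Erbb3 and 21.5 for Egfr, followed by Ereg at 17.0, Tgfa at 15.4, Btc at 9.09, Hbegf at 8.97, Epgn at 0.860 and Areg at 0.763 TPM. There, Ereg and Tgfa, Btc and Hbegf, and Epgn and Areg overlapped, and the other neighbours did not.

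The summed level of the 6 ligands was 186 ± 9.4 TPM in IMQ_Veh and 52.1 ± 2.61 TPM in UTX_Veh (SD, n = 3), while that of the 3 receptors was 88.7 ± 5.25 TPM in IMQ_Veh and 118 ± 4.51 TPM in UTX_Veh. The receptor sum was thus lower in IMQ_Veh on the TPM scale, although no receptor was lower on the scale of TMM-scaled counts (Erbb2 turned to -0.03 under upper-quartile scaling). Erbb3, of fixed length, averaged 33.2 TPM and 161 CPM in IMQ_Veh, against 39.9 TPM and 132 CPM in UTX_Veh. The relation of the scales thus differed between these groups without a change of length, and both TPM sums carry that difference. Shares within a library do not depend on it. The makeup of the ligand sum also differed. Hbegf made up 30.2% ± 0.414 of ligand TPM in IMQ_Veh and 17.3% ± 2.05 in UTX_Veh, and Epgn 30.1% ± 4.13 in IMQ_Veh and 1.64% ± 0.458 in UTX_Veh. Ereg made up 13.2% ± 3.67 in IMQ_Veh and 32.7% ± 2.15 in UTX_Veh, and Tgfa 16.6% ± 2.26 in IMQ_Veh and 29.5% ± 0.752 in UTX_Veh. Btc made up 0.779% ± 0.282 in IMQ_Veh and 17.4% ± 2.95 in UTX_Veh, and Areg 9.18% ± 2.79 in IMQ_Veh and 1.47% ± 0.216 in UTX_Veh. The libraries of IMQ_Veh and UTX_Veh did not overlap in the share of any ligand.

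**Figure D2:**
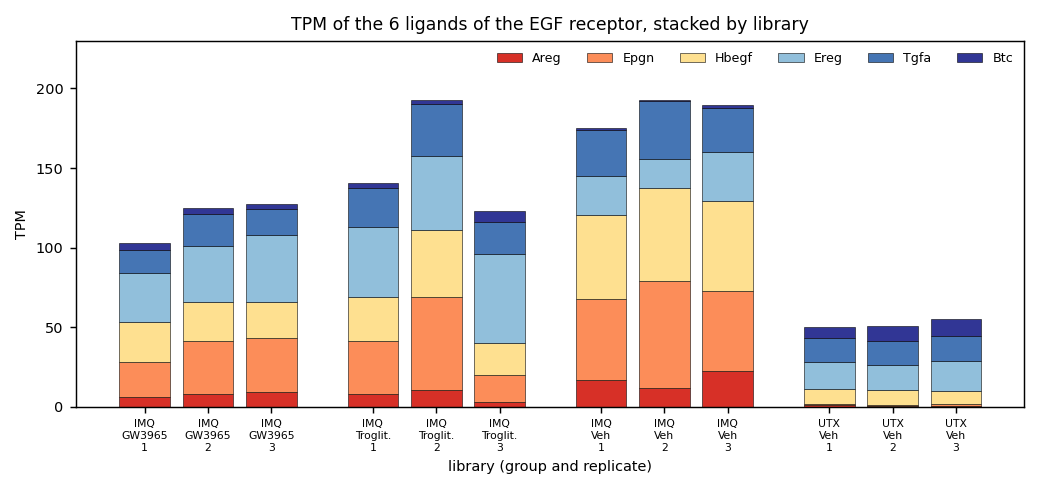
TPM of the 6 ligands stacked in each of the 12 libraries, by group from left to right IMQ_GW3965, IMQ_Troglitazone, IMQ_Veh and UTX_Veh. The stacks reach 175 to 193 TPM in IMQ_Veh and 50.1 to 55.0 TPM in UTX_Veh, and Ereg takes a larger share of the stack in every library of the drug groups than in IMQ_Veh.

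The next comparison set GW3965, given while imiquimod was still applied, against the vehicle. Hbegf and Tgfa were lower in IMQ_GW3965 than in IMQ_Veh, and no other member passed the test. By edgeR 2 of 9 members were lower and 0 were higher, while 2.88% of all genes were lower and 3.71% higher. At an unadjusted p under 0.05, 6 members were lower and 2 higher. DESeq2 called 4 lower and 1 higher, and limma-voom called 2 lower and 0 higher. Over all genes tested, DESeq2 called 1048 lower and 1174 higher, and limma-voom 602 lower and 906 higher. The share of all genes at an unadjusted p under 0.05 was not counted. The median log2 fold change was -0.34 over the 9 members and -0.01 over all genes tested. All IMQ_GW3965 libraries lay below all IMQ_Veh libraries for 6 members and above for 1, against 12.0% and 12.7% of all genes tested.

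Hbegf had 40.8, 43.0 and 47.8 CPM in IMQ_GW3965, against 98.7, 99.2 and 98.5 CPM in IMQ_Veh. The groups lay far apart, and the log2 fold change was -1.17 ± 0.21 (edgeR adjusted p = 0.0155). The call was lost without IMQ_Veh replicate 1 (0.0517) and without IMQ_GW3965 replicate 1 (0.0809), at log2 differences of -1.18 and -1.12. Tgfa had 47.9, 71.9 and 69.7 CPM in IMQ_GW3965, against 107, 126 and 95.1 CPM in IMQ_Veh. The groups did not overlap, and the log2 fold change was -0.79 ± 0.18 (edgeR adjusted p = 0.0286). That call was lost without IMQ_Veh replicate 1 (0.0806) or 2 (0.0717) and without IMQ_GW3965 replicate 1 (0.116), 2 (0.0529) or 3 (0.0571). Within lane fields L001 and L009, the log2 differences were -1.17 and -1.20 for Hbegf and -1.12 and -0.49 for Tgfa.

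The other ligands did not pass the test in IMQ_GW3965 against IMQ_Veh. Areg had 4.79, 6.81 and 9.12 CPM in IMQ_GW3965, against 9.81 CPM in the lowest IMQ_Veh library (log2 -1.05 ± 0.36; edgeR adjusted p = 0.094). Epgn had 25.3, 41.3 and 51.8 CPM in IMQ_GW3965, against 60.7 CPM in the lowest IMQ_Veh library (log2 -0.84 ± 0.37; edgeR adjusted p = 0.175). Both had all IMQ_GW3965 libraries below all IMQ_Veh libraries, as did 12.0% of all genes tested. Btc had 7.14, 8.21 and 6.29 CPM in IMQ_GW3965, against 3.73 CPM in the highest IMQ_Veh library (log2 1.25 ± 0.37; edgeR adjusted p = 0.0609). Ereg had 93.0, 114 and 165 CPM in IMQ_GW3965, against 85.2, 56.0 and 98.3 CPM in IMQ_Veh (log2 0.63 ± 0.22; edgeR adjusted p = 0.0963). Btc did not overlap between the groups and Ereg did. Calls appeared without IMQ_Veh replicate 3 for Btc (0.033) and Ereg (0.0275), and without IMQ_Troglitazone replicate 3 for Btc (0.0173) and Areg (0.037).

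None of the receptors passed the test with GW3965. Erbb3 averaged 127 ± 8.66 CPM in IMQ_GW3965 and 161 ± 20.8 CPM in IMQ_Veh (SD, n = 3), a log2 difference of -0.34 (edgeR adjusted p = 0.0637) that was called without IMQ_Veh replicate 3 (0.0271). Egfr averaged 90.4 ± 12.96 CPM in IMQ_GW3965 and 111 ± 11.1 CPM in IMQ_Veh, a log2 difference of -0.30 (edgeR adjusted p = 0.126). Erbb2 averaged 137 ± 9.41 CPM in IMQ_GW3965 and 154 ± 12.1 CPM in IMQ_Veh, a log2 difference of -0.17 (edgeR adjusted p = 0.224). The libraries overlapped for Erbb2 and lay apart for Egfr and Erbb3.

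Troglitazone was set against the same IMQ_Veh libraries, so its values and those of GW3965 stand side by side without being independent. Hbegf and Areg were lower and Btc was higher in IMQ_Troglitazone. By edgeR 2 of 9 members were lower and 1 was higher, while 4.65% of all genes were lower and 4.69% higher. At an unadjusted p under 0.05 (not counted over all genes), 5 members were lower and 2 higher. DESeq2 called 2 lower and 2 higher, and limma-voom 2 lower and 1 higher. Over all genes tested, DESeq2 called 1237 lower and 1353 higher, and limma-voom 964 lower and 1008 higher. The median log2 fold change was -0.22 over the 9 members and -0.02 over all genes tested. All IMQ_Troglitazone libraries lay below all IMQ_Veh libraries for 4 members and above for 2. Of all 17130 genes tested, 2400 lay likewise below and 2024 above.

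Hbegf had 43.1, 61.7 and 27.7 CPM in IMQ_Troglitazone, against 98.7, 99.2 and 98.5 CPM in IMQ_Veh. The IMQ_Troglitazone libraries were more spread but did not reach those of IMQ_Veh, and the log2 fold change was -1.16 ± 0.21 (edgeR adjusted p = 0.0126), a call lost without IMQ_Veh replicate 1 (0.0512). Areg had 5.59, 6.98 and 2.26 CPM in IMQ_Troglitazone, against 14.9, 9.81 and 18.2 CPM in IMQ_Veh. The groups did not overlap, and the log2 fold change was -1.53 ± 0.37 (edgeR adjusted p = 0.0283), a call lost without IMQ_Veh replicate 1 (0.0941) and without IMQ_Troglitazone replicate 1 (0.0635) or 3 (0.0761). Btc had 5.33, 4.75 and 12.4 CPM in IMQ_Troglitazone, against 3.37, 2.05 and 3.73 CPM in IMQ_Veh. The groups did not overlap, and the log2 fold change was 1.31 ± 0.36 (edgeR adjusted p = 0.0451). IMQ_Troglitazone replicate 3 stood apart for Btc, and without it the log2 difference was 0.74 (0.182). The Btc call was lost on leaving out any single library other than IMQ_Veh replicate 3 and IMQ_Troglitazone replicate 2 (0.0532 to 0.182). Within lane fields L001 and L009, the log2 differences were -1.52 and -0.68 for Hbegf, -1.44 and -1.23 for Areg, and 1.94 and 0.41 for Btc.

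The remaining ligands did not pass the test with troglitazone. Ereg had 122, 123 and 150 CPM in IMQ_Troglitazone, against 98.3 CPM in the highest IMQ_Veh library (log2 0.73 ± 0.22; edgeR adjusted p = 0.0579). The Ereg groups did not overlap, and it was called without IMQ_Veh replicate 3 (0.0155) and without IMQ_GW3965 replicate 1 (0.0489) or 3 (0.0371). Tgfa had 74.0, 94.4 and 60.0 CPM in IMQ_Troglitazone, against 95.1 CPM in the lowest IMQ_Veh library (log2 -0.52 ± 0.18; edgeR adjusted p = 0.0852). Its groups came close without overlapping, and it was called without IMQ_Veh replicate 3 (0.0364) or IMQ_Troglitazone replicate 2 (0.0459). Epgn had 35.7, 59.9 and 17.2 CPM in IMQ_Troglitazone, against 60.7 CPM in the lowest IMQ_Veh library (log2 -0.91 ± 0.37; edgeR adjusted p = 0.132). Without IMQ_Troglitazone replicate 2, its highest library in that group, the Epgn difference was -1.41 (0.0399). The receptors overlapped between the groups, with log2 differences of 0.06 for Egfr, -0.03 for Erbb2 and -0.22 for Erbb3 (edgeR adjusted p = 0.751, 0.829 and 0.167).

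**Figure D3:**
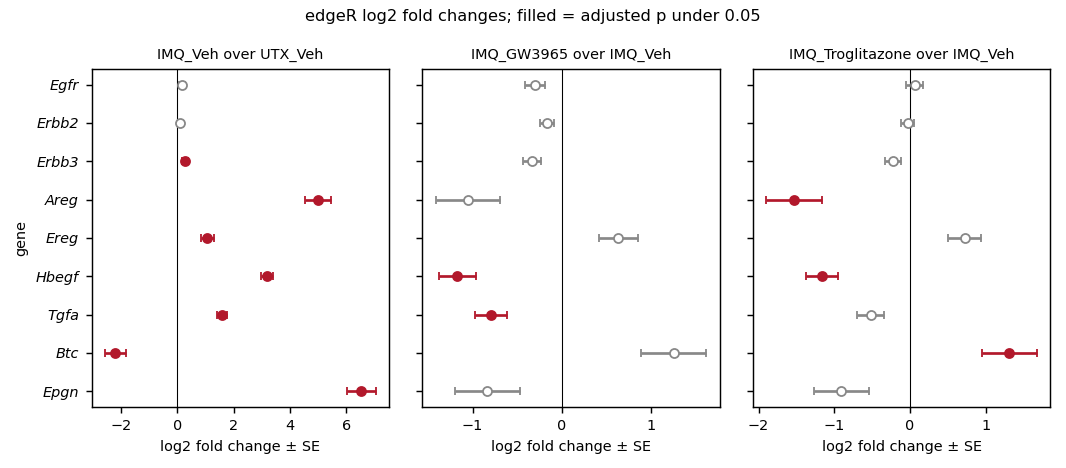
Log2 fold changes with SE from edgeR for the 9 members in IMQ_Veh over UTX_Veh, IMQ_GW3965 over IMQ_Veh and IMQ_Troglitazone over IMQ_Veh, filled at an adjusted p under 0.05, with a separate axis for each panel. Areg, Hbegf, Tgfa and Epgn are right of 0 in the first panel and left of it in both drug panels, Btc is the reverse, Ereg is right of 0 in all panels, and the drug comparisons share the IMQ_Veh libraries with the first.

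The number of members called against IMQ_Veh, 2 for GW3965 and 3 for troglitazone, depended on single libraries. It was 0 for each drug without IMQ_Veh replicate 1, and 5 for each without IMQ_Veh replicate 3. The counts over all genes moved too, from 1129 with GW3965 and 1600 with troglitazone in all libraries to 154 and 162 without IMQ_Veh replicate 1 and to 3645 and 4460 without IMQ_Veh replicate 3. For GW3965 the members called numbered 0 without IMQ_GW3965 replicate 1, where 105 of all genes were called. They numbered 1 without IMQ_GW3965 replicate 2 or 3 or IMQ_Veh replicate 2 (375, 412 and 733 of all genes). Without IMQ_Troglitazone replicate 3 they numbered 4 (1380 of all genes). For troglitazone the members called numbered 1 without IMQ_Troglitazone replicate 1 or 3 (750 and 252 of all genes). They numbered 5 without IMQ_Troglitazone replicate 2 (1082 of all genes). Some markers of other cells differed between the drug groups and IMQ_Veh. The 9 neutrophil markers summed to 276 to 2025 CPM in IMQ_GW3965 and 388 to 1970 CPM in IMQ_Troglitazone, against 5768 to 10105 CPM in IMQ_Veh. By edgeR 4 of 8 tested were lower with each drug, against 2.88% of all genes with GW3965 and 4.65% with troglitazone. The 14 skeletal muscle markers, none at 0, summed to 8257 to 11681 CPM in IMQ_GW3965 and 5869 to 8914 CPM in IMQ_Troglitazone, against 1885 to 7289 CPM in IMQ_Veh. By edgeR 4 of these 14 were higher with GW3965 and 0 with troglitazone, whose sums overlapped with those of IMQ_Veh. Over all genes tested, 3.71% were higher with GW3965 and 4.69% with troglitazone. The keratinocyte sums overlapped between these groups. Of the 13 keratinocyte markers, edgeR called 3 higher and 0 lower with GW3965, and 2 higher and 1 lower with troglitazone. The part of these markers in the drug differences was not tested.

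The ligand sum in the drug groups held a larger share of Ereg. Ereg made up 30.5% ± 2.56 of ligand TPM in IMQ_GW3965 and 33.6% ± 10.9 in IMQ_Troglitazone, against 13.2% ± 3.67 in IMQ_Veh, and no library of a drug group overlapped with IMQ_Veh. Hbegf made up 20.5% ± 3.35 in IMQ_GW3965 and 19.3% ± 2.83 in IMQ_Troglitazone, against 30.2% ± 0.414 in IMQ_Veh, again without overlap. The ligand sum was 118 ± 13.4 TPM in IMQ_GW3965 and 152 ± 36.5 TPM in IMQ_Troglitazone, against 186 ± 9.4 TPM in IMQ_Veh (SD, n = 3), and IMQ_Troglitazone replicate 2, at 193 TPM, was as high as the highest IMQ_Veh library. TPM and TMM-scaled CPM did not keep the same relation in every group. Erbb3, of fixed length, averaged 25.7 TPM and 127 CPM in IMQ_GW3965 and 34.3 TPM and 137 CPM in IMQ_Troglitazone. In IMQ_Veh Erbb3 averaged 33.2 TPM and 161 CPM. The order and overlap of the TPM sums between groups therefore hold for the TPM scale only. Ereg had the highest mean level of the 9 members in both drug groups, 36.2 TPM in IMQ_GW3965 and 48.8 TPM in IMQ_Troglitazone, and overlapped with Erbb2, which came next at 35.1 and 47.5 TPM. Btc was lowest in both, at 3.59 TPM in IMQ_GW3965 and 4.11 TPM in IMQ_Troglitazone.

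The drugs were given at different doses, and their groups were compared as given. By edgeR 0 of 9 members differed between IMQ_GW3965 and IMQ_Troglitazone, where 1.08% of all genes were higher and 0.782% lower, and DESeq2 and limma-voom also called 0. At an unadjusted p under 0.05 there was 1 member, Egfr, with 77.3, 103 and 90.8 CPM in IMQ_GW3965, against 105, 124 and 119 CPM in IMQ_Troglitazone. Those libraries did not overlap, and 11.2% of all genes tested lay likewise wholly below. The log2 difference of Egfr was -0.36 ± 0.11 (interval -0.61 to -0.11, edgeR adjusted p = 0.133). The intervals of the log2 difference were -0.47 to 0.45 for Hbegf, -0.66 to 0.12 for Tgfa, -0.33 to 1.28 for Areg, -0.57 to 0.38 for Ereg, -0.82 to 0.70 for Btc and -0.73 to 0.87 for Epgn. Differences inside these intervals remain compatible with the data, and the intervals are not limits of detection.

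Set against UTX_Veh, Areg, Epgn, Hbegf, Ereg and Tgfa were higher in both drug groups. By edgeR 5 members were higher in IMQ_GW3965 and 1 was lower, where 28.7% of all genes were higher and 21.5% lower, a split of 57.2% higher among the genes called that was 47.2% under upper-quartile scaling. In IMQ_Troglitazone 5 were higher and 0 lower, where 26.5% of all genes were higher and 18.8% lower, which is 58.5% higher among the genes called, or 44.7% with that scaling. The log2 fold changes over UTX_Veh were 3.95 in IMQ_GW3965 and 3.47 in IMQ_Troglitazone for Areg, 5.69 and 5.62 for Epgn, 2.01 and 2.02 for Hbegf, 1.71 and 1.80 for Ereg, and 0.79 and 1.06 for Tgfa, in the same order of groups. The edgeR adjusted p of these genes ran from 9.23e-06 to 0.00365 in IMQ_GW3965 and from 1.32e-05 to 0.000831 in IMQ_Troglitazone. Btc was lower in IMQ_GW3965 (log2 -0.94 ± 0.34; edgeR adjusted p = 0.0392), a call lost without IMQ_GW3965 replicate 1 (0.0883), 2 (0.055) or 3 (0.106) and without UTX_Veh replicate 2 (0.0988) or 3 (0.116). In IMQ_Troglitazone Btc was at -0.88 ± 0.34 (edgeR adjusted p = 0.0531), the 1 member lower at an unadjusted p under 0.05, and DESeq2 and limma-voom each called 1 lower. It was called by edgeR without IMQ_Troglitazone replicate 3 (-1.45; 0.002), IMQ_Veh replicate 2 (0.0347) or 3 (0.0443), or UTX_Veh replicate 1 (0.0471).

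RSEM reports for each gene a length weighted by the isoforms to which it assigns reads. For Egfr that length was 7562, 6374 and 7461 bases in the IMQ_Troglitazone libraries, 8409, 8672 and 7936 bases in IMQ_GW3965, 9140, 7942 and 8903 bases in IMQ_Veh, and 8199, 9119 and 7636 bases in UTX_Veh. Every IMQ_Troglitazone library was thus below every other library. GENCODE M21 annotates 5 Egfr transcripts, of 446, 463, 716, 2943 and 10208 bases. TPM are divided by this length, and Egfr averaged 24.6 ± 4.89 TPM in IMQ_Troglitazone and 16.1 ± 3.45 TPM in IMQ_Veh (SD, n = 3), while the TMM-scaled counts of these groups overlapped. Areg, Ereg and Erbb3 have 1 annotated transcript each and a fixed length. Erbb3 nevertheless averaged 34.3 TPM at 137 CPM in IMQ_Troglitazone and 33.2 TPM at 161 CPM in IMQ_Veh. The TPM scale thus differed between these groups apart from length, and the part of length in the Egfr difference was not tested. Other annotated genes overlap Egfr, Erbb2, Erbb3, Ereg and Tgfa, and the strand setting of the counting is not given in the sources used here, so their reads may be shared. RSEM gives other than whole numbers where it splits reads between features, and some expected counts of Ereg and Tgfa were not whole. Those of Egfr, Erbb2 and Erbb3 were whole in all 12 libraries, so no such split showed for the receptors.

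The remaining genes of the family were taken from the same fit. Of 6 listed genes, 5 were tested, since Nrg3 was below the filter, and in IMQ_Veh against UTX_Veh 1 rose and 4 fell, against 33.0% higher and 28.9% lower over all genes tested, with a median log2 fold change of -1.22. Nrg1, a neuregulin that binds Erbb3 and Erbb4, averaged 16.5 CPM in IMQ_Veh and 1.05 CPM in UTX_Veh (log2 3.96 ± 0.35; edgeR adjusted p = 4.86e-06). The receptor Erbb4 averaged 0.460 CPM in IMQ_Veh and 2.97 CPM in UTX_Veh (log2 -2.71 ± 0.52; edgeR adjusted p = 0.000872), and without IMQ_Veh replicate 3 its log2 difference was -3.70. The neuregulins Nrg2 and Nrg4 and the ligand Egf were the others that fell, by 1.22, 0.98 and 1.31 on the log2 scale (edgeR adjusted p = 0.000114, 8e-04 and 0.00529). With GW3965, where 2.88% of all genes were lower, Nrg1 was the 1 of 5 called against IMQ_Veh (log2 -1.30 ± 0.30; edgeR adjusted p = 0.0306), and the call was lost without IMQ_Veh replicate 1 or 2 or any IMQ_GW3965 library (0.0562 to 0.122). With troglitazone edgeR called 0 of 5, where 4.69% of all genes were higher and 4.65% lower. DESeq2 called 2 and limma-voom 2, against 2590 and 1972 over all genes tested, and 2 had an unadjusted p under 0.05. The edgeR log2 values were -0.92 for Nrg1 (adjusted p = 0.0712) and 0.40 for Nrg4 (adjusted p = 0.19).

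Of 11 genes that act in ligand release, 7 rose and 2 fell in IMQ_Veh against UTX_Veh, against 33.0% higher and 28.9% lower over all genes tested, with a median log2 fold change of 0.38. Adam8 rose by 2.21 ± 0.24 (edgeR adjusted p = 1.77e-05), Adam10, a sheddase of betacellulin, by 0.69 ± 0.11 (0.000286), and Adam17, the main sheddase of several of these ligands, by 0.43 (0.00135). Timp3, an inhibitor of Adam17, averaged 342 CPM in IMQ_Veh and 1514 CPM in UTX_Veh (log2 -2.14 ± 0.33; edgeR adjusted p = 0.000182), and Rhbdf1, which helps Adam17 to mature, fell by 0.45 (0.000321). Where 3.71% of all genes were higher with GW3965 and 4.69% with troglitazone, Timp3 was the 1 of 11 called against IMQ_Veh, higher by 1.29 ± 0.32 in IMQ_GW3965 (edgeR adjusted p = 0.0371) and by 1.12 ± 0.32 in IMQ_Troglitazone (0.0483). The call with GW3965 was lost without IMQ_Veh replicate 1 or 2, IMQ_Troglitazone replicate 1, or any library of IMQ_GW3965 or UTX_Veh (0.0501 to 0.151). That with troglitazone was lost without IMQ_Veh replicate 1 or 2, IMQ_GW3965 replicate 2 or 3, or any library of IMQ_Troglitazone or UTX_Veh (0.0611 to 0.153).

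Of 26 genes of the signal chain, 9 rose and 6 fell in IMQ_Veh against UTX_Veh, with a median log2 fold change of 0.02. Over all genes tested 33.0% rose and 28.9% fell, so these counts were near the background. Map2k1 and Map2k2, the kinases that activate ERK, rose by 1.07 ± 0.12 and 0.77 ± 0.09 (edgeR adjusted p = 2.09e-05 and 2.11e-05), and the Ras gene Nras rose by 0.70 ± 0.08 (2.76e-05). Pik3r1, a regulatory subunit of PI3K, fell by 1.48 (SE 0.17; edgeR adjusted p = 2.42e-05). With GW3965, where 2.88% of all genes were lower, the 1 of 26 called against IMQ_Veh was Stat3, a transcription factor downstream of Egfr and of cytokine receptors (log2 -0.64 ± 0.17; edgeR adjusted p = 0.0482). It was lost without IMQ_Veh replicate 1 or 2, IMQ_Troglitazone replicate 1, or any library of IMQ_GW3965 or UTX_Veh (0.0694 to 0.175). With troglitazone edgeR called 0 of 26, where 4.69% of all genes were higher and 4.65% lower. DESeq2 called 2 and limma-voom 2, against 2590 and 1972 over all genes tested. At an unadjusted p under 0.05, 3 of the 26 were higher and 5 lower. Stat3 was at -0.35 (adjusted p = 0.208) and the kinase Akt1 at -0.14 (0.51). Between the drugs Sos2, an activator of Ras, was at -0.31 ± 0.07 in IMQ_GW3965 against IMQ_Troglitazone (edgeR adjusted p = 0.0493), lost without any single library other than IMQ_Veh replicate 2 or 3 (0.0753 to 0.196).

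Of 22 listed inhibitors of the pathway, 21 were tested, and 7 rose and 7 fell in IMQ_Veh against UTX_Veh, with a median log2 fold change of -0.15. These counts, too, were near the 33.0% higher and 28.9% lower over all genes. Dusp5, a phosphatase of nuclear ERK, rose by 2.03 ± 0.15 (edgeR adjusted p = 1.76e-06). Spred2 and Spry1, which restrain Ras and Raf, fell by 0.86 and 0.93 (edgeR adjusted p = 3.47e-05 and 0.000103), and Lrig3, of the LRIG family, fell by 0.996 (7.57e-05). With GW3965, where 2.88% of all genes were lower, the 1 of 21 called against IMQ_Veh was Cbl, a ubiquitin ligase that sends Egfr to degradation (log2 -0.49 ± 0.12; edgeR adjusted p = 0.0378). It was lost without IMQ_Veh replicate 1 or 2, IMQ_GW3965 replicate 1 or 3, or any UTX_Veh library (0.0578 to 0.154). With troglitazone, where 4.69% of all genes were higher, it was Dusp4, a phosphatase of ERK (log2 0.70 ± 0.19; edgeR adjusted p = 0.0453), lost without any single library other than IMQ_Veh replicate 3 or IMQ_Troglitazone replicate 2 (0.0554 to 0.163).

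Of 21 genes known to be induced by growth factors through ERK, 10 rose and 4 fell in IMQ_Veh against UTX_Veh, against 33.0% higher and 28.9% lower over all genes tested, with a median log2 fold change of 0.38. Those with the lowest adjusted p were Ier3, an early response gene (log2 2.42 ± 0.17; edgeR adjusted p = 1.11e-06), the AP-1 subunit Junb (1.63 ± 0.15; 5.12e-06), Phlda1 (1.89 ± 0.20; 1.41e-05) and Plaur, the urokinase receptor (2.48 ± 0.29; 2.57e-05). With GW3965, edgeR called 1 of 21 higher than in IMQ_Veh and 1 lower, where 3.71% of all genes were higher and 2.88% lower. DESeq2 called 7 of the list and limma-voom 4, against 2222 and 1508 over all genes tested. At an unadjusted p under 0.05 there were 3 higher and 7 lower. Plaur fell by 1.37 (SE 0.27; edgeR adjusted p = 0.0204), and Ccn2, a matricellular protein, rose by 1.36 ± 0.28 (0.0219). Both were lost without IMQ_Veh replicate 1 or IMQ_GW3965 replicate 1 or 2, Plaur at 0.0559 to 0.0989 and Ccn2 at 0.0503 to 0.0948. With troglitazone, edgeR called 1 higher and 4 lower, where 4.69% of all genes were higher and 4.65% lower. DESeq2 called 8 of the list and limma-voom 7, against 2590 and 1972 over all genes tested. Plaur fell by 1.35 (edgeR adjusted p = 0.0157), lost without IMQ_Veh replicate 1 (0.0575), and Junb by 0.60 (0.0284), lost without IMQ_Veh replicate 1 or 2 (0.0615 to 0.0941). Ier3 fell by 0.66 (edgeR adjusted p = 0.0296), lost without IMQ_Veh replicate 1 or 2, IMQ_Troglitazone replicate 1 or 3, or UTX_Veh replicate 1 (0.0505 to 0.0991). Ccn2 rose by 1.21 ± 0.28 (0.0253), lost without IMQ_Veh replicate 1 or 2 or IMQ_Troglitazone replicate 1 or 3 (0.0528 to 0.102).

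The list counts against IMQ_Veh moved with the libraries left out, as did the counts over all genes. Without IMQ_Veh replicate 3, where 3645 of 17518 genes were called with GW3965 and 4460 with troglitazone, the called genes numbered 4 in the signal chain, 3 in ligand release, 2 among the other family genes and 4 among the ERK-induced genes with GW3965, and 7 in the signal chain, 6 among the inhibitors and 2 each in ligand release and the other family genes with troglitazone. Without IMQ_Troglitazone replicate 3, the ERK-induced genes called with GW3965 numbered 5 and those of the signal chain 2, and without IMQ_Veh replicate 2 the ERK-induced genes numbered 4. All genes called with GW3965 numbered 1380 and 733 in these fits. With troglitazone, leaving out IMQ_Troglitazone replicate 2 gave 2 in the signal chain, 2 among the inhibitors and 1 among the other family genes (1082 of all genes). Leaving out IMQ_GW3965 replicate 1 gave 1 in the signal chain (1413 of all genes), and leaving out IMQ_GW3965 replicate 2 gave 1 among the other family genes (997 of all genes). The ERK-induced genes called with troglitazone numbered 2 without IMQ_Troglitazone replicate 1 or 3 (750 and 252 of all genes) and 3 without UTX_Veh replicate 1 (880 of all genes). They numbered 0 with each drug without IMQ_Veh replicate 1, where 154 of all genes were called with GW3965 and 162 with troglitazone.

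**Figure D4:**
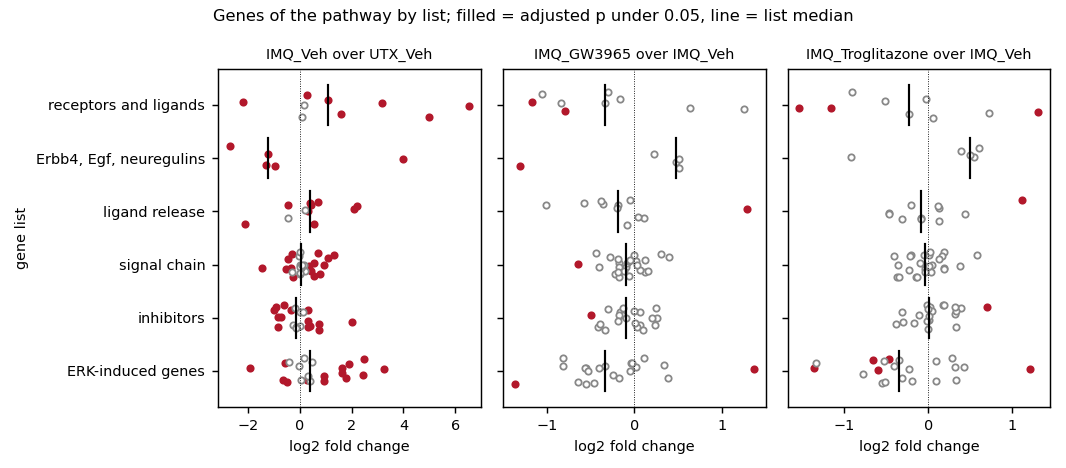
Log2 fold changes from edgeR of each tested gene (points) by list in IMQ_Veh over UTX_Veh, IMQ_GW3965 over IMQ_Veh and IMQ_Troglitazone over IMQ_Veh, with the list median as a black line and filled points at an adjusted p under 0.05. Points are spread vertically within a list for legibility, and filled points are many in the first panel and few in both drug panels.

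The surroundings of the chromosome 5 ligands were read out as well. Within 500 kb of the span from Epgn to Btc, GENCODE M21 annotates 34 genes, of which 31 were in the tables and 13 were tested. The chemokine genes lie on the Epgn side. Cxcl1 and Cxcl2, attractants of neutrophils, rose by 4.77 ± 0.68 and 7.11 ± 0.93 on the log2 scale in IMQ_Veh against UTX_Veh (edgeR adjusted p = 0.00011 and 6.17e-05). They rested on 96 and 26 counts over the 3 UTX_Veh libraries, and without UTX_Veh replicate 1 the log2 differences were 5.40 and 8.34. Cxcl5 and Cxcl3, of the same family, averaged 13.5 and 13.96 CPM in IMQ_Veh and had 1 and 2 counts over the 3 UTX_Veh libraries, so no fold is given. The platelet chemokines Ppbp and Pf4 rose by 2.74 ± 0.47 and 0.77 ± 0.16 (edgeR adjusted p = 0.000426 and 0.00137). Ppbp rested on 11 counts over the 3 UTX_Veh libraries, and its log2 difference ran from 2.33 to 3.28 with 1 library left out. Mthfd2l, a mitochondrial folate enzyme between the chemokines and Epgn, and Rassf6, beyond the chemokines, did not pass the test, at -0.12 ± 0.15 and -0.10 ± 0.28 (edgeR adjusted p = 0.507 and 0.784). Parm1, on the Btc side, rose by 0.92 ± 0.29 (edgeR adjusted p = 0.0155), a call lost without IMQ_Veh replicate 3 (0.53; 0.0676) or UTX_Veh replicate 1 (0.052) or 2 (0.0539).

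**Figure D5:**
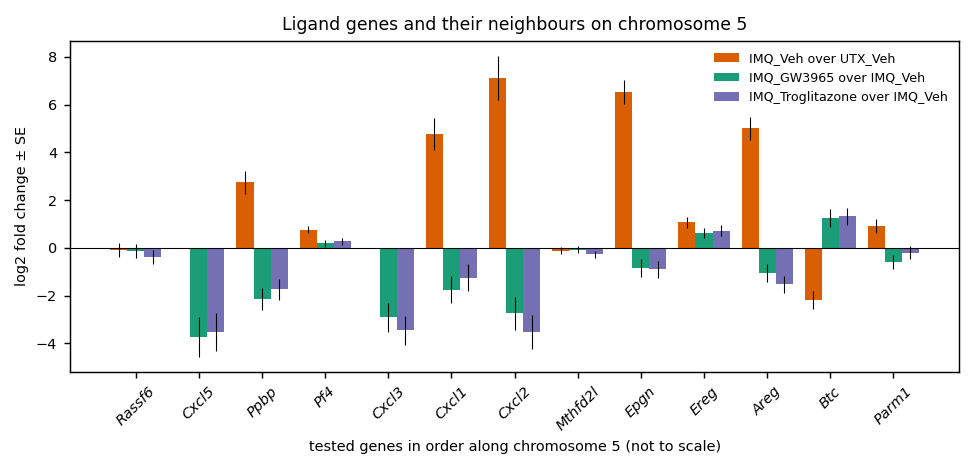
Log2 fold changes with SE from edgeR of the 13 tested genes around the ligand genes, in their order along chromosome 5, for IMQ_Veh over UTX_Veh, IMQ_GW3965 over IMQ_Veh and IMQ_Troglitazone over IMQ_Veh. The IMQ_Veh over UTX_Veh bars of Epgn, Areg, Cxcl1 and Cxcl2 are tall, those of Mthfd2l and Rassf6 are near 0 and that of Btc is below 0, and none is drawn for Cxcl5 and Cxcl3, which had 1 and 2 counts in UTX_Veh.

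The genes whose profiles were most like each member were found among 13814 genes by the root mean square difference of centred log2 CPM over the 12 libraries. Areg was nearest to Clec4d (0.389), which is also one of the neutrophil markers, Htr1b (0.399) and Sirpb1c (0.401). Epgn was nearest to Klk6 (0.431), Slpi (0.467) and Gjb6 (0.470), and Hbegf to Ankle1 (0.212), Klk10 (0.242) and Akr1b8 (0.243). Tgfa was nearest to Osmr (0.0939), Stat3 (0.0993) and Tiparp (0.111). Ereg was nearest to Cpa4 (0.200), Hpgd (0.218) and Cpm (0.236), and Cpa4 had log2 differences of 0.998 in IMQ_Veh over UTX_Veh, 0.73 in IMQ_GW3965 over IMQ_Veh and 0.69 in IMQ_Troglitazone over IMQ_Veh. Btc was nearest to Skint4 (0.223), Mycl (0.228) and Klf9 (0.237). The receptors varied less, and the nearest genes were Atxn1l, Eea1 and Lats1 for Egfr, Fbxo11, Eif4enif1 and Gtf3c2 for Erbb2, and Smad1, Stk38 and Yy1 for Erbb3, at differences of 0.0530 to 0.0851.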

How the data were processed

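Per the labels' protocols, mirVana-purified, DNase-treated RNA went into TruSeq stranded mRNA libraries. Tools listed in the submitters' processing notes are RSEM 1.3.3, STAR 2.7.3a, Trim Galore and FastQC, with GRCm38 (mm10) as the build. In the sources used here, strand setting and annotation release are not given. RSEM gene tables are what the authors deposited, and of these the expected counts (estimated reads per gene), TPM and the isoform-weighted gene length were used. Names and coordinates come from GENCODE M21, which matched 52135 of 55416 identifiers.

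Expected counts were rounded and tested in R 4.3.3 with edgeR 4.0.16 (filterByExpr by group, TMM, glmQLFit and glmQLFTest, all 12 libraries in 1 fit), with Benjamini-Hochberg adjustment over 17130 genes and a threshold of 0.05. The test was checked on simulated counts. CPM are scaled by TMM. DESeq2 1.42.0 and limma 3.58.1 (voom) were among the alternatives. The members and lists were chosen with earlier results of these data known. Named genes are all members, up to 4 changed genes per list and comparison with the lowest adjusted p (where none changed, the 2 with the highest mean CPM), the 3 nearest profiles per member, and tested genes within 500 kb of the chromosome 5 ligands. Egf and Adam17 were named after their values were seen. Within groups, chi-square per degree of freedom between libraries was at least 8.34, so none was counted as a copy.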

Additional observations from a re-analysis of the deposited data

How the results depend on the processing

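Each of 12 libraries was left out in turn, and 13 other settings were tried. For GW3965 against IMQ_Veh, 2 members were called, and the count was 5 under DESeq2, 4 with no filter on low counts, 1 in a fit of only the 2 groups, 1 with the lane covariate and 5 with the replicate block. In the same order, all genes called numbered 2222, 1480 (of 30272 tested), 102, 549 and 1426, against 1129. For troglitazone against IMQ_Veh, 3 were called, and the count was 0 in a fit of only the 2 groups and 5 without IMQ_Veh replicate 3 and IMQ_GW3965 replicate 3 together. All genes called numbered 0 and 4166 there, against 1600. With 1 library left out, both counts ran from 0 to 5. The cause was not tested. With the replicate block, 7 members were called in IMQ_Veh against UTX_Veh, 4 with troglitazone against IMQ_Veh, and 6 with GW3965 and 7 with troglitazone against UTX_Veh, where 5 were called with troglitazone without it. In the same order, all genes called with the block numbered 10722, 1715, 8716 and 7911, against 10597, 1600, 8606 and 7768 without it. With block and lane together, 6 members were called in IMQ_Veh against UTX_Veh, 3 and 2 with GW3965 and troglitazone against IMQ_Veh, and 6 and 7 against UTX_Veh. All genes called there numbered 10461, 885, 991, 8646 and 7795, in the same order. Same-numbered libraries correlated at -0.221 to 0.312, and 6 of 12 did best with their own number, so the numbers were not taken to pair the libraries.

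Log2 values near 0 changed sign. Under upper-quartile scaling Erbb2 was -0.0284 in IMQ_Veh against UTX_Veh, Erbb2 was -0.0573 and Erbb3 -0.0559 in IMQ_Troglitazone against UTX_Veh, and Hbegf was 0.0080 between the drugs. Between IMQ_GW3965 and IMQ_Troglitazone, Hbegf was 0.0681 by limma-voom, 0.0289 with the replicate block, 0.0133 with the lane covariate and 0.0509 with both. Btc was 0.0639 by limma-voom, 0.0529 with the replicate block, 0.0437 with both covariates and 0.0164 with 2 libraries left out, where Epgn was -0.183. Rassf6 in IMQ_Veh against UTX_Veh was 0.0795 with the lane covariate, 0.0816 with both and 0.0901 with 2 libraries left out.

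With 1 library left out, the ranges between the drugs were -0.360 to 0.0776 for Ereg, -0.257 to 0.311 for Hbegf, -0.298 to 0.517 for Btc, -0.280 to 0.576 for Epgn, -0.0102 to 0.238 for Nrg4, -0.0709 to 0.264 for Timp3, -0.0251 to 0.0676 for Emp1 and -0.180 to 0.119 for Errfi1. They were -0.0950 to 0.0184 for Erbb2 and -0.233 to 0.0124 for Akt1 in IMQ_Troglitazone against IMQ_Veh, -0.431 to 0.126 for Rassf6 in IMQ_Veh against UTX_Veh, and -0.143 to 0.0079 for Erbb3 in IMQ_GW3965 against UTX_Veh.

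All genes called numbered 1129 with GW3965 and 1600 with troglitazone against IMQ_Veh, and 319 between the drugs. They numbered 2222, 2590 and 960 under DESeq2, 102, 0 and 9 in fits of only the 2 groups, and 3041, 4166 and 0 with 2 libraries left out. With 1 library left out they ran from 105 to 3645, 162 to 4460 and 0 to 692. The lane covariate gave 549 and 1009 against IMQ_Veh, and between the drugs no filter gave 140 and the replicate block 131. With block and lane together, 991 were called with troglitazone and 26 between the drugs. DESeq2 put 47.3% of the genes called between the drugs higher, against 58.0% by edgeR.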
